A study of Homo sapiens with 18 samples.

Results

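The 77 genes that encode the proteins of the cytosolic ribosome were followed in the bladder cancer lines UM-UC-3 and T24, which are established human lines from transitional cell cancer. The cells were labelled as wild type and were transfected with a control siRNA (siNC) or with siACAT1-1 or siACAT1-2, which target ACAT1, a mitochondrial acetyl-CoA acetyltransferase. Each of the 6 groups of cell line and siRNA had 3 libraries of stranded mRNA sequencing. The members were taken by name from the count table as the rows RPL or RPS followed by a number, with A or X where the name has one, plus RPLP0, RPLP1, RPLP2 and RPSA. This gave 46 genes of the large subunit and 31 of the small subunit among 39496 genes. All 77 had enough reads to be tested, as had 20144 genes in all, and the smallest count of any member in any library was 192 reads. FAU, which makes a ribosomal protein fused to a ubiquitin-like protein, lies outside the naming rule and is given separately.

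Each ribosomal protein is present as a single copy in nearly every ribosome, apart from the acidic proteins of the stalk, so cells make these proteins in matched amounts. Their mRNAs start with a C followed by an unbroken run of C and T, called a 5′ terminal oligopyrimidine (5′ TOP) motif, which lets mTOR signalling and the protein LARP1 control their translation and stability together. MYC and mTOR signalling drive ribosome production in growing cancer cells. Free RPL5 and RPL11, which travel with the 5S RNA, bind MDM2 and so connect ribosome assembly to p53.

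The start of the gene is shown for RPS25, RPS4X, RPS3, RPL10 and RPLP1, which had the smallest p values between the siRNAs among members with a promoter in the RefSeq table, for RPL35A, the one member that pointed the other way, and for ACAT1, the siRNA target. Each line holds the 15 bases before the RefSeq start and the 15 bases from it onward, on the strand of the gene (GRCh38.p14). Capitals mark the longest unbroken run of C and T that comes within 5 bases of the start.
RPS25: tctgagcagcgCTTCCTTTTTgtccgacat
RPS4X: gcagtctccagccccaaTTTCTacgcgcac
RPS3: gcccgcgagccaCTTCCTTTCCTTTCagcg
RPL10: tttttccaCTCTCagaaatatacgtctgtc
RPLP1: gtataggcgcgagagCCCCTTTCCTCagct
RPL35A: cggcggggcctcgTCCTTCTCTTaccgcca
ACAT1: ggggaggaggccgctagTCTacgcctgtgg
These windows lie at chr11:119018329-119018358 (minus strand) for RPS25, chrX:72277234-72277263 (minus strand) for RPS4X, chr11:75399503-75399532 (plus strand) for RPS3, chrX:154398050-154398079 (plus strand) for RPL10, chr15:69452803-69452832 (plus strand) for RPLP1, chr3:197950175-197950204 (plus strand) for RPL35A and chr11:108121552-108121581 (plus strand) for ACAT1. RPS3, RPLP1, RPS25 and RPL35A had runs of 14, 11, 10 and 10 bases, while the runs of RPS4X and RPL10 at the listed start were 5 bases long and that of ACAT1 was 3. A RefSeq promoter was matched for 62 of the 77 members, and 15 had none in the table. A run of at least 8 C or T within 5 bases of the start, read on the strand of the gene, was found in 47 of these 62 (75.8%), against 3087 of all 27305 promoters (11.3%). The start base itself was C in 46 of the 62 (74.2%) and in 15.0% of all promoters. The match is to letters at 1 listed start per gene and says nothing of which start these cells used.

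The libraries had 25163490 to 34417230 reads counted on genes (median 28613163), so counting error was small for every member. ACAT1 was at 44.1 to 47.4 RPKM (reads scaled to gene length and to the library's counted reads) with siNC in UM-UC-3 cells and at 1.83 to 3.59 RPKM with the siRNAs, and at 14.6 to 17.1 RPKM and 0.671 to 1.46 RPKM in T24 cells, so all 18 libraries matched their label as control or knockdown. The 2 siRNAs overlapped in UM-UC-3 cells (2.25 to 3.59 and 1.83 to 2.79 RPKM), so ACAT1 does not check which of them a library received. siACAT1-2 left less ACAT1 than siACAT1-1 (log2 fold change -0.62 ± 0.15 (SE), adjusted p = 0.034). The keratins KRT8 (27.8 to 435 RPKM) and KRT18 (96.6 to 304 RPKM) were present and VIM, a mesenchymal filament, was high (138 to 328 RPKM). The other mesenchymal genes listed were lower and differed between UM-UC-3 and T24 cells. FN1 was at 0.741 to 1.02 and 5.94 to 33.8 RPKM, CDH2 at 2.78 to 4.43 and 4.59 to 17.9, and ZEB1 at 26.3 to 48.8 and 10.4 to 19.1 RPKM. The urothelial genes GATA3, UPK1A, UPK1B, UPK2, UPK3A and KRT5 and the epithelial cadherin CDH1 did not exceed 0.660 RPKM. Other epithelial and urothelial markers differed between the lines. KRT7 was at 1.94 to 7.22 RPKM in UM-UC-3 and 81.1 to 371 RPKM in T24 cells, PPARG at 0.0876 to 0.448 and 2.90 to 6.23, KRT19 at 0.0554 to 0.172 and 1.56 to 31.8, FOXA1 at 0.0352 to 0.219 and 0.483 to 2.03, and EPCAM at 0 to 0.111 and 0.656 to 2.70 RPKM.

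The ribosomal protein genes held 4.84% to 8.70% of all counted reads. In UM-UC-3 cells the share was 7.09%, 6.45% and 8.27% with siNC, 5.95%, 7.11% and 8.13% with siACAT1-1 and 7.50%, 8.04% and 8.70% with siACAT1-2. In T24 cells it was 6.43%, 4.84% and 6.82% with siNC, 5.52%, 4.84% and 6.56% with siACAT1-1 and 7.50%, 5.65% and 6.25% with siACAT1-2. The siRNA groups overlapped in both lines, while the mean was highest with siACAT1-2 in each (8.08% ± 0.604 and 6.47% ± 0.942, SD, n = 3) and lowest with siACAT1-1 (7.06% ± 1.09 and 5.64% ± 0.867). In bulk RNA, less mRNA of this kind per cell and fewer cells that hold much of it cannot be told apart. Rows for ribosomal pseudogenes, 805 of them for 73 of the members, held 0.0918% to 0.165% of the reads.

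**Figure D1:**
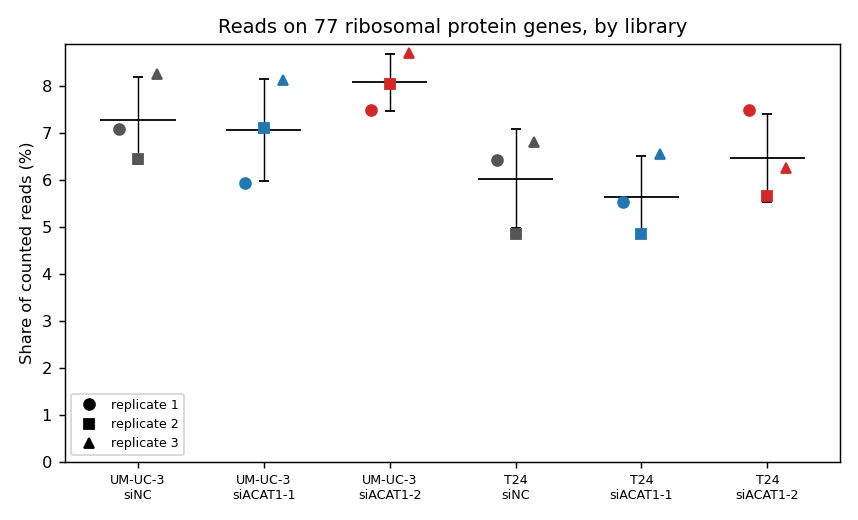
Share of counted reads on the 77 ribosomal protein genes (vertical axis, percent) in the 3 libraries of each of the 6 groups, with symbols for the replicate number and a line and bar for the mean and SD. The share ran from 4.84% to 8.70%, was highest on average with siACAT1-2 in both lines and was lowest at replicate 2 in each T24 group.

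Although the proteins are made in matched amounts, the mRNA levels per length differed widely. The mean RPKM over the 18 libraries ran from 2.81 to 1709, a 607-fold range, with a median of 181. By RPKM, RPL5, the 5S RNA partner, was highest (1709 RPKM), followed by RPL23A (1652), which sits near the exit of the peptide tunnel, and RPL26 (1187). This order depends on the gene length used, as given below. RPS29 (2.81 RPKM), RPS28 (6.10) and RPL18 (19.8) were lowest. The 10 members with the most reads held 41.8% of all reads on the family. 4 members were above 1000 RPKM and 8 were below 50 RPKM.

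Part of this spread moves with how the table was made. The length used for RPKM is that of all exons of a gene, which for RPS29 was 9783 bases, and Spearman's coefficient between this length and the RPKM was -0.27 over the 77 members, a description with no test. Many of these genes also have near copies in the genome. Of all windows of 100 bases in the MANE Select mRNA, a median of 7.38% per member also occurred elsewhere in the genome without a mismatch, with 20 members at none, 12 over 50% and RPL21 at all of its windows. The share was 44.3% for RPS25 and 43.9% for RPS2, and at none for RPS4X. Spearman's coefficient between the RPKM and this share was 0.28, so members with more shared sequence did not have lower levels, and how reads with several equally good places were handled is not given in the sources used here. Exons of 46 members also overlapped another annotated gene, and for RPL10 (55.5%), RPL17 (35.3%), RPS10 (28.8%) and RPS2 (25.6%) over more than 25% of exon bases.

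Whether knockdown of ACAT1 changed the ribosomal protein genes was tested for each siRNA in each line with edgeR's quasi-likelihood test, with a call at a Benjamini-Hochberg adjusted p under 0.05 over all 20144 genes. No member was called in UM-UC-3 cells with siACAT1-1 (all genes 0.00993%) or siACAT1-2 (0.0546%), in T24 cells with siACAT1-1 (0.124%) or siACAT1-2 (0.268%), or in the mean of the 4 comparisons (0.223%). At an unadjusted p under 0.05 there were 0, 0, 2, 0 and 0 of the 77 members, against 1075, 777, 2325, 1700 and 2201 of all 20144 genes. DESeq2 called 1 member, RPS25, in T24 cells with siACAT1-1 (2.08% of the genes it tested) and 0 in the other 4 (0.0795%, 0.113%, 1.27% and 1.64%). The medians over the 77 members for siACAT1-1 and siACAT1-2 were -0.040 and 0.11 (log2) in the UM-UC-3 line and -0.078 and 0.13 in the T24 line, against medians of all genes between -0.0099 and 0.010. Members above 0 numbered 23 and 68 of 77 in the UM-UC-3 line and 16 and 64 in the T24 line, and both comparisons of a line share its siNC libraries. These medians moved with single libraries. In UM-UC-3 cells siACAT1-1 ran from -0.14 without its replicate 3 to 0.097 without its replicate 1, and siACAT1-2 from 0.033 to 0.19 without siNC replicate 2 or 3. In T24 cells siACAT1-1 ran from -0.28 without siNC replicate 2 to 0.033 without its own replicate 2, and siACAT1-2 from -0.067 to 0.25 without siNC replicate 2 or 1. The mean of the 4 comparisons had a median of 0.012, with 46 of 77 above 0.

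Libraries with the same replicate number within a line moved together, so each comparison was also fitted with the replicate number as a block, which raised the number of calls among all genes. With this block, siACAT1-1 lowered 4 members in T24 cells (13.9% of all genes were called, 7.31% lower), namely RPS25 (-0.68 ± 0.13 (SE), adjusted p = 0.0021), RPL41 (-0.39 ± 0.10, 0.017), RPS2 (-0.36 ± 0.11, 0.031) and RPS3 (-0.36 ± 0.12, 0.049). RPL41 is a peptide of the large subunit, RPS2 and RPS3 line the mRNA entry of the small subunit, and RPS25 is a small subunit protein that several viral internal ribosome entry sites need. siACAT1-2 raised RPS24 in T24 cells (0.40 ± 0.12, adjusted p = 0.037, with 8.48% of all genes called and 4.55% higher). Over the 4 comparisons RPL41 was lower (-0.21 ± 0.063, adjusted p = 0.034, with 12.4% of all genes called and 6.46% lower). In each case the share of members called was below the share of all genes called. The T24 calls with siACAT1-1 fell to 1 without replicate 1 or 3 of its siNC or siACAT1-1 libraries. For those fits the share of all genes called is not given here. No member was called with the block in UM-UC-3 cells with either siRNA, where 3.06% and 1.36% of all genes were called. There 1 and 2 of the 77 members had an unadjusted p under 0.05, against 3732 and 2706 of all 20144 genes.

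RPL41 measured 188, 244 and 235 RPKM with siNC, 175, 217 and 206 with siACAT1-1 and 202, 205 and 222 with siACAT1-2 in the UM-UC-3 line. In T24 cells it measured 177, 139 and 197 RPKM with siNC, 123, 118 and 145 with siACAT1-1 and 157, 127 and 159 with siACAT1-2. The groups overlapped in both lines, and within a replicate number the siACAT1-1 library was below the siNC library in each of the 6 pairs. The call for RPL41 over the 4 comparisons needed the block, since without it the adjusted p was 0.49, and with it the number of members called over the 4 comparisons ranged from 0 to 2 as single libraries were left out.

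The members that rose most in the mean of the 4 comparisons, RPL27A (0.19 ± 0.12), RPS27 (0.18 ± 0.11) and RPS24 (0.17 ± 0.14), did not pass the test (adjusted p = 0.63, 0.61 and 0.74, and 0.069, 0.14 and 0.17 with the block). RPS25 (-0.23 ± 0.12, adjusted p = 0.51) and RPLP0, the scaffold of the stalk (-0.11 ± 0.14, 0.89), were at the low end with RPL41. The siRNA effect was also compared between the lines. No member differed (0% of all genes, and 0.104% with the block), and DESeq2 called 0 (0.00253%). None of the 77 had an unadjusted p under 0.05 in either fit, against 517 of all 20144 genes without the block and 1905 with it.

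The 2 siRNAs were then compared with each other, over both lines. siACAT1-2 gave higher values than siACAT1-1 for 76 of the 77 members, by a median of 0.18 (log2), that is 1.13-fold, while the median of all genes was 0.011. It ran from 0.075 without T24 siACAT1-2 replicate 1 to 0.25 without T24 siACAT1-2 replicate 2. Under the other scalings 75 to 76 members were above 0. Without the block 1 member, RPS25, was called (2.56% of all genes, 1.18% higher), and DESeq2 also called 1 (7.58%). At an unadjusted p under 0.05 there were 9 of the 77 members, against 3369 of all 20144 genes. With the block 19 members (24.7%) were called and all 19 were higher with siACAT1-2, against 20.6% of all genes called, 10.4% higher and 10.2% lower.

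The 19 members, 8 of the large and 11 of the small subunit, were 0.23 to 0.59 higher on the log2 scale, or 1.17 to 1.50-fold. After RPS25 the smallest p values were those of RPS2 (0.35 ± 0.076, adjusted p = 0.0030), RPS4X (0.38 ± 0.090, 0.0050), an X-linked small subunit protein, RPS3 (0.35 ± 0.084, 0.0058) and RPL10 (0.31 ± 0.083, 0.011), which sits at the joint of the subunits near the tRNA sites. RPLP1 of the stalk (0.34 ± 0.095, adjusted p = 0.013) and RPL13A (0.32 ± 0.089, 0.014) followed. RPS6, the substrate of S6 kinase whose phosphorylation is used as a readout of mTOR signalling, was also called (0.24 ± 0.080, 0.041). Among the others called were RPL31, RPL4, RPL12, RPS20, RPL38, RPS19, RPL28, RPS12, RPS3A and RPS24. RPL5 (0.12 ± 0.081, adjusted p = 0.32) and RPL11 (0.070 ± 0.077, 0.57) were not called, nor were RPLP0 (0.29 ± 0.10, 0.050), RPL3 (0.24 ± 0.087, 0.058), RPSA (0.21 ± 0.083, 0.074), RPLP2 (0.17 ± 0.093, 0.22), RPS27A (0.075 ± 0.079, 0.55), RPL22 (0.11 ± 0.082, 0.37) and RPS27 (0.21 ± 0.089, 0.10). RPL35A was the one member below 0 (-0.082 ± 0.088, adjusted p = 0.47).

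The size of this difference depended on the replicate number. Within UM-UC-3 cells the median of siACAT1-2 minus siACAT1-1 was 0.33 at number 1, 0.10 at number 2 and 0.033 at number 3, with 77, 66 and 55 of 77 members higher. Within T24 cells it was 0.50, 0.19 and -0.070, with 76, 72 and 23 of 77 higher. At number 3 in T24 cells most members thus pointed the other way. 19 members were higher with siACAT1-2 at all 6 numbers, 34 at 5 and 17 at 4. At number 1 the siACAT1-1 libraries were low (median -0.28 and -0.24 against siNC in the UM-UC-3 and the T24 line), and the siACAT1-2 library of T24 was high (0.22). Without 1 of these 3 libraries (UM-UC-3 siACAT1-1, T24 siACAT1-1 or T24 siACAT1-2 at number 1) the blocked fit called 5, 4 and 5 members in place of 19. It called 9 and 8 without UM-UC-3 siACAT1-2 at number 1 or 2, and 33 without T24 siACAT1-2 at number 3. The share of all genes called in these fits is not given here. A change in the members thus cannot be told from a change in all genes. Libraries of the 2 siRNAs did not overlap for 5 members in UM-UC-3 cells (RPS25, RPL38, RPL15, RPL29 and RPL7A, with 9.21% of all genes) and for 7 in T24 cells (RPS25, RPS2, RPL38, RPS19, RPS12, RPS20 and RPL10, with 7.79%), each higher with siACAT1-2, and for 0 members in the other direction (8% and 7.15% of all genes).

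RPS25 was the member that separated the siRNAs best. In UM-UC-3 cells it measured 326, 371 and 408 RPKM with siNC, 263, 319 and 292 with siACAT1-1 and 389, 399 and 406 with siACAT1-2. In T24 cells it measured 190, 116 and 188 RPKM with siNC, 93.3, 104 and 100 with siACAT1-1 and 185, 140 and 186 with siACAT1-2. In both lines siACAT1-1 was below both other groups in every library, with a narrow gap to siNC in UM-UC-3 cells (319 to 326 RPKM) that closed when composition factors were applied, while siACAT1-2 overlapped siNC. The siRNAs differed by 0.60 ± 0.14 (adjusted p = 0.029), and by 0.59 ± 0.093 with the block (1.9e-04), in 6 of 6 replicate numbers. Over the alternatives the adjusted p was 1.9e-04 to 0.11. The unblocked call was lost without any of 9 of the 18 libraries (adjusted p up to 0.10), while the difference stayed between 0.55 and 0.68, and it was lost without number 3 of UM-UC-3 (0.60, adjusted p = 0.11).

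RPS25 lies at chr11:119015712-119018691 (GRCh38, minus strand), and 20.8% of its exon bases overlap exons on the other strand, mostly of TRAPPC4, a vesicle tethering factor. TRAPPC4 was far lower, at 2.57 to 5.92 RPKM, and differed between the siRNAs by 0.19 ± 0.089 with the block (adjusted p = 0.13). For RPL10, which overlaps DNASE1L1 on the other strand, DNASE1L1 was 0.52 ± 0.092 higher with siACAT1-2 (adjusted p = 5.4e-04, block), at 4.21 to 13.0 RPKM against 29.4 to 62.0 RPKM for RPL10. The strand setting of the counting is not given in the sources used here, and the part of these partners in the result was not tested.

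**Figure D2:**
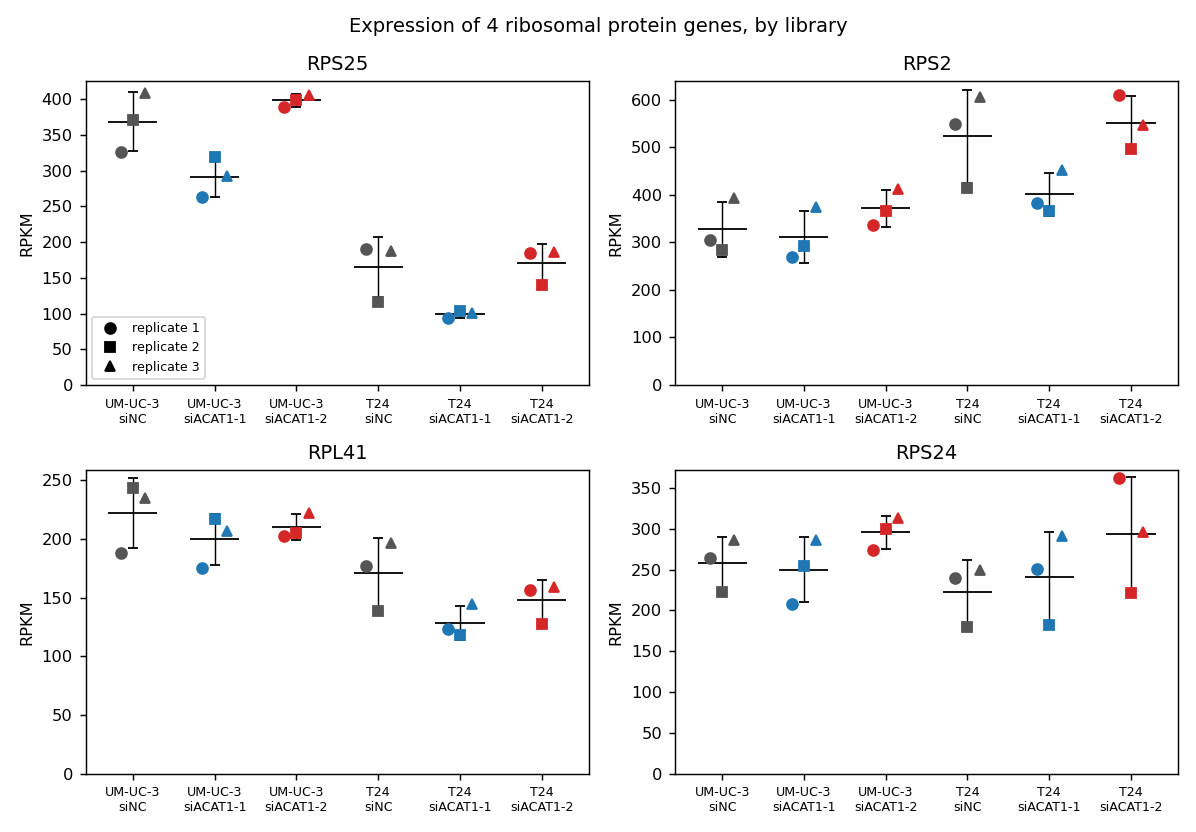
RPKM (vertical axes, from 0) of RPS25, RPS2, RPL41 and RPS24 in every library of the 6 groups, with symbols for the replicate number and a line and bar for the mean and SD. RPS25 with siACAT1-1 lies below the other groups in both lines, at 263 to 319 and 93.3 to 104 RPKM, while the groups of RPL41 and RPS24 overlap.

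RPS2 measured 549, 415 and 605 RPKM with siNC in T24 cells, 383, 367 and 452 with siACAT1-1 and 610, 497 and 546 with siACAT1-2. The siACAT1-1 libraries were below all siACAT1-2 libraries there. In UM-UC-3 cells RPS2 measured 305, 284 and 394, 268, 291 and 374, and 336, 366 and 412 RPKM in the same order of siRNAs, and the groups overlapped. RPS24 reached 362, 222 and 296 RPKM with siACAT1-2 in T24 cells, against 240, 179 and 250 with siNC and 250, 182 and 291 with siACAT1-1. These groups overlapped as well, with replicate 2 lowest in each.

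Genes tied to the ribosomal proteins were read beside them. Of 19 other genes with 5′ TOP mRNAs, 16 were higher with siACAT1-2 than with siACAT1-1 (median 0.11), and with the block 6 were called, all higher (10.4% of all genes), without it 0. EEF2, which moves the ribosome along the mRNA, was 0.32 ± 0.079 higher (adjusted p = 0.0070). The other 5 were NAP1L1, EIF3L, EEF1B2, EEF1A1 and HNRNPA1. FAU was at 0.22 ± 0.083 (adjusted p = 0.071), near the median of the members. Of 8 noncoding or coding 5′ TOP hosts of small nucleolar RNAs, 7 were above 0 and 1, SNHG6, was called (0.37 ± 0.089, adjusted p = 0.0061).

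In T24 cells with siACAT1-1 against siNC all 8 of these host genes were below 0 (median -0.46), and 6 of 8 were called with the block (7.31% of all genes fell). SNHG8 (-0.99 ± 0.17, adjusted p = 7.1e-04), SNHG1 (-0.69 ± 0.15, 0.0050) and SNHG5 (-0.60 ± 0.15, 0.011) fell most, with GAS5 at -0.45 ± 0.13 (0.024). Among the ribosomal protein genes RPS25 and RPL41 fell most there (-0.68 and -0.39), and the difference between the lists was not tested. Without the block 0 were called. In UM-UC-3 cells the same siRNA had 7 of the 8 host genes above 0 (median 0.15 with the block) and siACAT1-2 had 6 of 8 (0.14), with 0 called. The difference of effects between the lines was above 0 for all 8, with 0 called (0.104% of all genes).

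Among genes that regulate or carry ribosomal proteins, 6 of 9 regulators and 10 of 13 carriers and importers were below 0 between the siRNAs. Of the 9 regulators 3 were called lower with siACAT1-2 with the block (10.2% of all genes), which were MYC (-0.66 ± 0.16, adjusted p = 0.0058), RPS6KB1, the S6 kinase (-0.70 ± 0.091, 2.8e-05) and EIF4E, the cap-binding protein (-0.74 ± 0.093, 1.9e-05). Only RPS6KB1 of these was called without the block (adjusted p = 0.010). Of the 13 carriers and importers 5 were called lower and 1 higher. IPO7, an importer of ribosomal proteins, was the lowest (-1.18 ± 0.073, adjusted p = 2.7e-09), from 81.8 to 102 RPKM with siACAT1-1 to 43.1 to 46.8 with siACAT1-2 in the UM-UC-3 line, and from 52.2 to 70.9 down to 22.5 to 31.1 in the T24 line, with no overlap in either line. IPO7 was also called without the block (adjusted p = 2.0e-05) and has values of siACAT1-1 that overlap those of siNC (81.6 to 86.7 and 57.1 to 70.8 RPKM).

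Paralogs outside the naming rule behaved unevenly. Of 8 listed, 6 had enough reads to be tested, and RPL3L and RPL10L were at or below 0.0874 RPKM. With siACAT1-2 against siACAT1-1 and the block, RPL36AL (0.45 ± 0.10, adjusted p = 0.0044) and RPS27L (0.43 ± 0.094, 0.0027), a p53 target, were higher, and RPL7L1 (-0.34 ± 0.074, 0.0026) and RPL26L1 (-0.28 ± 0.083, 0.020) were lower. RPL39L was also called higher (adjusted p = 0.018), but it was at 0 to 0.330 RPKM in UM-UC-3 cells with the siRNAs, so no fold is given. In T24 cells it measured 6.97, 15.1 and 7.12 RPKM with siACAT1-1 and 15.9, 18.2 and 14.4 RPKM with siACAT1-2. RPL22L1, which can replace RPL22 in the ribosome, was at 0.33 ± 0.15 (adjusted p = 0.13). Between the siRNAs 20.6% of all genes were called with the block, 10.4% higher and 10.2% lower, and none of the 6 paralogs was called without it. In T24 cells with siACAT1-1 against siNC, 2 of the 6 were called lower with the block (7.31% of all genes) and 0 without it.

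The largest differences in the family were those between the cell lines. In the siNC libraries 31 of the 77 members (40.3%) were called, 23 higher in UM-UC-3 cells and 8 higher in T24 cells, while 44.3% of all genes were called, 22% higher in UM-UC-3 cells and 22.3% higher in T24 cells. The median difference of the members was 0.34 (log2), with 58 of 77 above 0, against 0.030 for all genes. It ran from 0.14 to 0.44 without T24 siNC replicate 2 or 1. With the block 53 members were called, 43 higher in UM-UC-3 cells and 10 higher in T24 cells (61.7% of all genes, 31.6% and 30.2%). Without the block the number fell to 17 without replicate 3 of the UM-UC-3 groups, and to 19, 18 and 20 when UM-UC-3 siNC replicate 3, T24 siNC replicate 2 or T24 siNC replicate 3 was left out. For the fits with libraries left out, the share of all genes called is not given here.

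RPL4, a core protein of the tunnel wall, differed most, at 731, 643 and 908 RPKM in UM-UC-3 siNC libraries and 236, 122 and 243 RPKM in T24 cells (log2 difference 1.95 ± 0.28, adjusted p = 3.7e-05). The libraries of the lines did not overlap. RPS25 (1.19 ± 0.20, adjusted p = 1.4e-04), RPLP1 (1.12 ± 0.22, 5.7e-04) and RPS14 (1.11 ± 0.24, 0.0014), a gene lost with the long arm of chromosome 5 in a form of myelodysplasia, were also more than 2-fold higher in UM-UC-3 cells. RPL11, at 353, 321 and 403 RPKM in the UM-UC-3 line and 242, 144 and 222 RPKM in the T24 line, was higher by 0.86 ± 0.24 (adjusted p = 0.0086), and RPL5 by 0.60 ± 0.20 (0.020).

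RPL35 differed most among members higher in T24 cells, at 745, 553 and 709 RPKM against 341, 306 and 300 in UM-UC-3 cells (-1.05 ± 0.21, adjusted p = 7.0e-04). RPL36A followed with 660, 547 and 674 RPKM against 327, 261 and 373 (-0.93 ± 0.21, 0.0018). Neither gene overlapped between the lines. RPL13 (-0.66 ± 0.26, adjusted p = 0.049), RPL12 (-0.64 ± 0.23, 0.030) and RPS2 (-0.64 ± 0.19, 0.012) were also higher in T24 cells. The calls for RPL13 and RPL12 were lost when single libraries were left out, with adjusted p up to 0.17 and 0.12. The siNC libraries of the lines did not overlap for 34 members higher in UM-UC-3 cells (27.3% of all genes) and for 7 higher in T24 cells (26.1%). Among the paralogs, RPL39L was at 0.0668 to 0.294 RPKM in UM-UC-3 cells and 13.0 to 23.7 RPKM in T24 cells with siNC (adjusted p = 2.5e-07), RPS27L was higher in UM-UC-3 cells (1.37 ± 0.20, 4.9e-05) and RPL26L1 was higher in T24 cells (-1.20 ± 0.23, 4.3e-04).

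**Figure D3:**
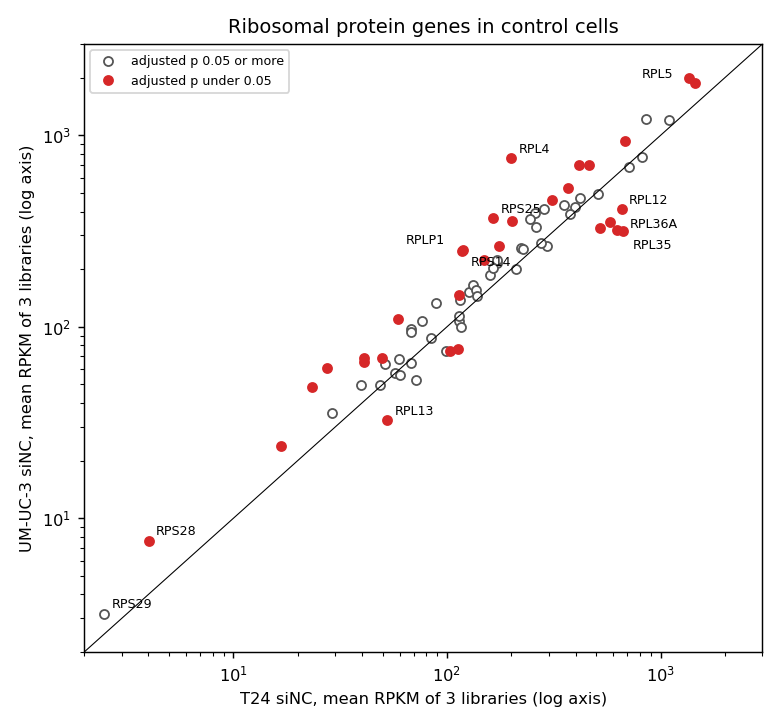
Mean RPKM of each member in the 3 siNC libraries of T24 (horizontal log axis) and of UM-UC-3 cells (vertical log axis), with filled points at an adjusted p under 0.05 without the block and a line of equal values. RPL4 lies farthest above the line and RPL35 and RPL36A lie below it.

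The replicate number was itself tested, since the members followed it. In T24 cells 60 of 77 members (77.9%) differed between the numbers, against 43.9% of all genes. All 77 were above the line mean at number 1 (median 0.18, log2) and 0 of 77 at number 2 (median -0.32), with 70 above it at number 3 (0.12). RPS7 (0.64, -0.60 and -0.037 at numbers 1, 2 and 3, adjusted p = 8.7e-08) and RPL34 (0.76, -0.63 and -0.13, 3.7e-07) differed most. RPL3, which reaches towards the peptidyl transferase centre, measured 284, 163 and 326 RPKM with siNC, 209, 149 and 280 with siACAT1-1 and 309, 161 and 282 with siACAT1-2. The library of number 2 was the lowest in each siRNA group for RPL3 as for the share of the whole family.

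In UM-UC-3 cells 8 of 77 members (10.4%) differed between the numbers, against 24.6% of all genes. No member was above the line mean at number 1 (median -0.13), 33 were at number 2 (-0.014) and 71 at number 3 (0.14). RPL3 had the smallest adjusted p (0.0018). The share of mitochondrial transcripts moved with the numbers too, at 4.46%, 3.29% and 5.03% on average at numbers 1, 2 and 3 of T24 and 6.01%, 5.89% and 4.56% of UM-UC-3. Keratins moved with the numbers in T24 cells as well: at number 2 KRT8 was at 94.7 to 143 RPKM, against 288 to 435 at the other numbers, KRT18 at 117 to 159 against 215 to 304, KRT7 at 81.1 to 140 against 215 to 371 and KRT19 at 1.56 to 4.95 against 11.0 to 31.8. EPCAM, another epithelial gene, went the other way. It was highest at number 2 in each siRNA group of T24, at 1.08 to 2.70 RPKM against 0.656 to 1.30 at the other numbers. The part of these genes in the result was not tested. Neither the labels nor the study's methods say what a number marks.

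**Figure D4:**
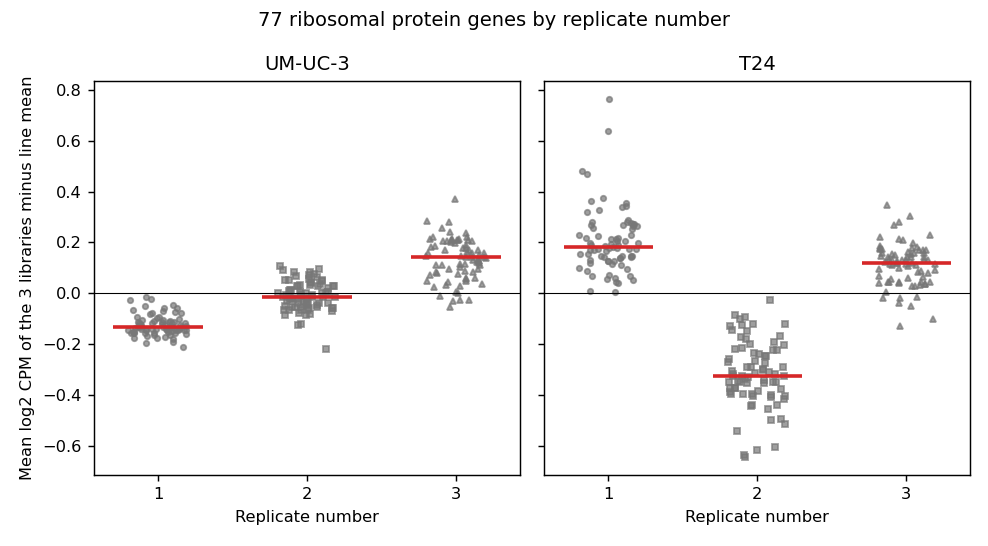
Difference of each of the 77 members from its line mean (vertical axis, log2 CPM, mean of the 3 libraries of a replicate number) at numbers 1, 2 and 3 in UM-UC-3 and T24 cells, with a bar for the median. In T24 cells the median is 0.18 at number 1 and -0.32 at number 2, with 0 members above the mean there.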

How the data were processed

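RNA-seq was done on 18 libraries, 3 for each of 6 groups, made with a stranded mRNA kit whose adapters carry molecular identifiers. Per the submitters' processing notes, Trimmomatic 0.36, STAR 2.5.3, featureCounts of Subread 1.5.1 and GRCh38 were used. The authors deposited raw read counts per gene for 39496 genes, with the exon length of each gene, and RPKM values calculated from the same counts. The annotation release, strand setting, collapse of molecular identifiers and handling of reads with several places are not given in the sources used here. Counts therefore measure reads, and genes with near copies or overlapping genes are uncertain.

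The members and lists were chosen with earlier results of these data known. They were set as all rows that the naming rule matches. The genes named with values were the highest and lowest members of each comparison (3 of each in the mean of the 4 comparisons), the members called, the 5 smallest p values in each direction with the block, the 5 largest differences in each direction between the lines, the 3 highest and 3 lowest by RPKM and members of known role. Values of some genes that this rule names are not reported here. TRAPPC4 and DNASE1L1 were added after their partners' values were seen, as were SNHG and paralog values where called and the RPS7, RPL34 and RPS2 values given by library or by replicate number.

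Counts were fitted in R 4.3.3 with edgeR 4.0.16 (filterByExpr, TMM factors 0.935 to 1.06, quasi-likelihood test) in 1 model of 18 libraries with a coefficient for each group, and adjusted with the Benjamini-Hochberg method over 20144 genes at a threshold of 0.05. The model was tested on simulated data with planted changes larger than any difference of a member between the siRNAs. The simulated replicate shifts were drawn for each gene on its own. That test therefore says nothing of changes as small as those of the members, or of shifts that the members share. DESeq2 1.42.0, other scalings, no filter on low counts, a block for the replicate number inside each line, and leaving out each library were alternatives. Pairing by number was taken from the data: after the group mean was taken off, the 9 pairs of like number had r = 0.19 to 0.73 in UM-UC-3 and 0.49 to 0.78 in T24 cells over the genes, which are no independent replicates. Pairs of other number had r = -0.71 to 0.40 (median -0.17) in UM-UC-3 and -0.67 to 0.26 (median -0.50) in T24 cells. The ranges for like and other number thus overlapped in UM-UC-3 cells. Replicates varied beyond sampling error, with a chi-square of 13.0 to 194 per degree of freedom over the 18 pairs, so none was merged. The labels call them biological replicates. Fold changes are log2 with SE, RPKM is given with SD, and intervals for counting error are not given since the libraries are deep. Shared windows were searched on both strands of 24 chromosomes. The mRNAs for these windows were those of GENCODE 44. Exon overlaps were taken from the exon coordinates deposited with the counts, and the promoters are those of RefSeq.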

Additional observations from a re-analysis of the deposited data

How the results depend on the processing

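Of the 308 alternative values of the 12 medians over the members, all differed from the median of the full fit by less than the pooled SD between libraries (0.24, log2). This SD is larger than every median except that between the lines (0.34), so it cannot show that the other medians were stable. Medians near 0 changed sign when single libraries were left out. With the replicate block the members called came to 4 in T24 cells with siACAT1-1, 1 with siACAT1-2, 1 in the mean of the 4 comparisons, 19 between the siRNAs and 53 between the lines in siNC. The block ended no call between the siRNAs. In T24 cells with siACAT1-1, 1 member was called with no filter on low counts, with DESeq2, and without number 2 of T24. Without number 3 of UM-UC-3 the siRNAs differed in 0 members and the lines in 17. The settings without a number, and those on top of the block, were chosen after seeing the data. On top of the block, T24 siACAT1-2 gave 2 members with no filter and 0 without number 2 of T24 or number 3 of UM-UC-3, and the mean of the 4 comparisons gave 2 by library size alone, with no filter and without number 2 of T24, and 0 without number 3 of UM-UC-3. The members that differed by replicate number in UM-UC-3 rose from 8 to 24 by library size alone and to 26 with no filter. Leaving out single libraries gave 0 to 1 members between the siRNAs, 0 to 1 in T24 cells with siACAT1-1, 18 to 33 between the lines, 48 to 69 by replicate number in T24 and 1 to 18 in UM-UC-3. With the block it gave 4 to 33 between the siRNAs, 1 to 5 and 0 to 1 in T24 cells with siACAT1-1 and siACAT1-2, and 0 to 2 in the mean of the 4 comparisons. Apart from the main fit, the fit with the block and DESeq2, the share of all genes called under each setting is not given here. From the counts of members alone, a change in the members under those settings cannot be told from a change in all genes. Some small log2 values changed sign without 1 library. RPS27 with siACAT1-1 in UM-UC-3 ranged from -0.029 (without replicate 3 of that group) to 0.26. RPL27A with siACAT1-1 in T24 ranged from -0.019 (without siNC replicate 2) to 0.29, and RPL28 in the difference of effects between lines from -0.016 (without T24 siNC replicate 1) to 0.43. RPL11 between the siRNAs went to -0.022 without T24 siACAT1-1 replicate 2 and to -0.062 without T24 siACAT1-2 replicate 1, with a highest value of 0.16. None of these 4 genes was called in those comparisons, and the cause of these changes was not tested. Every member had at least 192 reads in each library.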
